A study of Mus musculus with 6 samples.

Results

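Genes of the cell division cycle were examined in RNA-seq of newborn mouse calvaria, as the 36 rows of the count tables, of 44556, whose gene symbol matched a fixed list. The list holds 10 genes of DNA replication in S phase, 3 genes of the entry into S phase and 23 genes of mitosis. The S-phase genes were lower in the libraries labelled *OsxCre;Stat3fl/fl*, with a median log2 fold change of −0.44, values below 0 for 10 of 10 and 8 of 10 called at an unadjusted p, whereas the mitotic genes had a median of 0.00, with 10 of 23 below and 13 above 0. Thymidylate synthase (*Tyms*), at 54.6% of the *OsxCre* level, was the 1 gene of the 36 that passed the adjusted test. Of all tested genes, 8.34% were called lower at an unadjusted p and 0.481% passed the adjusted test as lower.

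The tissue was parietal bone, a flat bone of the skull vault, of newborn C57BL/6 mice, with 3 libraries from *OsxCre* mice and 3 from *OsxCre;Stat3fl/fl* littermates. Both groups carry the *OsxCre* transgene, which makes Cre recombinase mainly in osteoblast precursors under the Osterix promoter, and the *OsxCre;Stat3fl/fl* mice carry in addition *Stat3* alleles whose exons 18-20 are flanked by loxP sites. Deletion is thus directed mainly to the osteoblast lineage, and the bone also holds other cells. The labels number the libraries within a genotype without naming the animal behind each number, so that p-values measure the spread between these libraries.

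A dividing cell passes through a gap phase (G1), DNA synthesis (S), a further gap (G2) and mitosis (M). Genes of S phase are switched on at the end of G1 by E2F transcription factors once cyclin-dependent kinases inactivate the retinoblastoma protein, whereas genes of mitosis are switched on later, in G2, by FOXM1 and the MYB-MuvB complex, which act through sites named CHR. Both sets are held off by the DREAM complex in cells at rest. In the growing skull, proliferation is found in osteoprogenitors of the sutures and periosteum, in blood cell precursors of the marrow and in cells of other tissues attached to the bone.

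Sequencing gave between 8193651 and 12080044 counts per library. The values below are counts scaled to the library size after edgeR's TMM method (CPM), 15600 genes passed the filter on low counts, and all 36 genes of the list were among them. A gene is called lower or higher here at an unadjusted p under 0.05 in edgeR's quasi-likelihood test, and passes the adjusted test at a Benjamini-Hochberg adjusted p under 0.05. *Stat3* itself (chr11:100886806-100939594 in GRCm38) had 149, 134 and 141 CPM in *OsxCre* libraries 1, 2 and 3, against 152, 154 and 155 CPM for libraries 1, 2 and 3 labelled *OsxCre;Stat3fl/fl*. Libraries are listed in this order throughout. Each *Stat3* value labelled *OsxCre;Stat3fl/fl* lay above each *OsxCre* value, as in 10.8% of all tested genes. The log2 fold change of *Stat3* was 0.12 (SE 0.07, adjusted p = 0.442), so that these gene counts show no loss of *Stat3* RNA in the libraries labelled with the floxed allele, on which every direction given here rests. The counts do not separate exons 18-20 from the other exons. The female-specific *Xist* had between 7333 and 12392 counts in each of the 6 libraries and 4 Y-linked genes summed to at most 2 counts per library, although the study's text describes male newborns.

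The MCM genes encode the subunits of the ring-shaped helicase that is loaded on replication origins in G1 and unwinds DNA in S phase. *Mcm5* had 42.7, 33.9 and 42.9 CPM in the *OsxCre* libraries, against 25.6, 28.1 and 25.0 CPM in those labelled *OsxCre;Stat3fl/fl*. The highest of the latter lay below the lowest *OsxCre* value. The log2 fold change of *Mcm5* was −0.60 (SE 0.12, adjusted p = 0.0599). *Mcm2* had 45.6, 41.5 and 44.4 CPM against 28.3, 36.3 and 26.6 CPM, a log2 fold change of −0.53 (SE 0.13, adjusted p = 0.0988). *Mcm3* had 48.2, 38.5 and 44.9 CPM against 34.0, 27.1 and 31.4 CPM, a log2 fold change of −0.51 (SE 0.12, adjusted p = 0.0989). In these genes too the genotypes did not overlap. *Mcm7* had 21.4, 21.8 and 23.9 CPM against 17.1, 16.1 and 18.4 CPM (log2 fold change −0.38, SE 0.11). *Mcm4* had 34.5, 34.3 and 33.9 CPM against 25.0, 29.1 and 27.8 CPM (log2 fold change −0.33, SE 0.09). *Mcm6* had 75.7, 65.8 and 61.6 CPM against 54.0, 57.2 and 53.9 CPM (log2 fold change −0.30, SE 0.09). The subunits of the ring thus differed in the same direction, with 6 of 6 called lower at an unadjusted p and 6 of 6 without overlap between genotypes. Over all tested genes, 8.34% were called lower at the unadjusted p and 12.2% were lower without overlap. None of the 6 passed the adjusted test by edgeR, which 0.481% of all tested genes passed as lower, whereas DESeq2's Wald test gave adjusted p-values of 0.00859 for *Mcm5*, 0.0308 for *Mcm2* and 0.0446 for *Mcm3*. That test also called more of all tested genes lower at an adjusted p under 0.05, 235 against 75 by edgeR.

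The promoters of 2 of these genes are printed to show the letters that E2F and the CCAAT-binding factor NF-Y are known to read. Each runs from 250 bases before the start of the transcript to 30 bases after it, 5′ to 3′ on the gene's strand, from RefSeq on GRCm38.p6. Capitals mark matches on either strand that end within the printed stretch, and overlapping matches are joined. The letters searched for E2F were TTCCCGC, and with other bases in the middle also TTGGCGC, and as a further form of the same site TTCGCGC. The CCAAT box was searched by the letters of its name. The letters searched for CHR were TTTGAA, and as the other common form of that site TTTAAA. The window of *Mcm5* lies on the plus strand at chr8:75109259-75109538, and that of *Mcm6* on the minus strand at chr1:128359676-128359955.
Mcm5: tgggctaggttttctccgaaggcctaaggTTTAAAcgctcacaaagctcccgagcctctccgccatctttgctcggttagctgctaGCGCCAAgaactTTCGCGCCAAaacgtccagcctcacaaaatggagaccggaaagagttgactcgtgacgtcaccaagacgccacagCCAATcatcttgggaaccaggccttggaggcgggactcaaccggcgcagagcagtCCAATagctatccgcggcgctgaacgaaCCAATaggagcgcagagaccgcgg
Mcm6: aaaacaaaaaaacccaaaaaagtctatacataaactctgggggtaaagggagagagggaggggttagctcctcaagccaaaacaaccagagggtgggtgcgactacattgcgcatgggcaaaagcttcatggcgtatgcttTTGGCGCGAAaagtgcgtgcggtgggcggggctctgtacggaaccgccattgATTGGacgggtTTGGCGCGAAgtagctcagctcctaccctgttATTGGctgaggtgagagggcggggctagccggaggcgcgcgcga
In *Mcm5* the E2F letters start 164, 152 and 149 bases before the start site and are followed by CCAAT boxes. A CHR match in *Mcm5* starts 221 bases before the start site. *Mcm6* holds overlapping pairs of E2F matches on opposite strands, the first pair starting 109 and 106 bases before the start site and the next 46 and 43 bases before it. A further E2F match in *Mcm6*, GCGCGAA, starts at base 25 of the transcript. It runs past the printed stretch and is thus left in lower case.

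DNA polymerases also need a sliding clamp and a supply of deoxynucleotides. *Tyms*, which makes the thymidine nucleotide that only DNA uses, had 27.7, 22.0 and 24.9 CPM in the *OsxCre* libraries, against 14.4, 13.3 and 13.1 CPM in those labelled *OsxCre;Stat3fl/fl*. The genotypes did not overlap, with means of 24.9 ± 2.83 and 13.6 ± 0.693 CPM (SD, n = 3 each). The log2 fold change was −0.87 (SE 0.12), and the adjusted p of 0.0213 by edgeR was the smallest in the list. With a library left out it ran from 0.0368, without *OsxCre* library 2, to 0.113, and was 0.05 or more without any other single library. The related row *Tyms-ps* had 0 counts in every library. *Rrm2*, the small subunit of ribonucleotide reductase, had 34.9, 28.9 and 33.1 CPM against 18.2, 25.6 and 23.4 CPM, with no overlap and a log2 fold change of −0.53 (SE 0.14, adjusted p = 0.133). Its large subunit *Rrm1* had 76.1, 57.2 and 71.1 CPM against 56.5, 57.1 and 60.2 CPM (log2 fold change −0.23, SE 0.11, adjusted p = 0.348). Here *OsxCre* library 2 lay within the values of the other genotype. *Pcna*, the sliding clamp, had 71.0, 65.3 and 61.5 CPM against 54.1, 63.2 and 57.2 CPM, also with overlap (log2 fold change −0.18, SE 0.09, adjusted p = 0.370). Of the 10 S-phase genes, 8 were called lower at an unadjusted p and 0 higher, and 8 were lower without overlap. The shares of all tested genes were 8.34% called lower and 12.2% lower without overlap.

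The 3 genes of S-phase entry had log2 fold changes below 0. *Ccne1*, a cyclin E that activates CDK2, had 12.7, 12.9 and 15.4 CPM against 9.34, 9.05 and 11.2 CPM, without overlap (log2 fold change −0.47, SE 0.15, adjusted p = 0.189). *Ccne2*, the other cyclin E gene, had 8.07, 8.11 and 9.54 CPM against 4.67, 7.34 and 4.67 CPM, again without overlap (log2 fold change −0.63, SE 0.23, adjusted p = 0.225). Both were called lower at an unadjusted p. Of all tested genes, 8.34% were called lower and 12.2% were lower without overlap. *Cdc6*, which loads the MCM ring on origins, was counted less and varied more. It had 8.54, 4.65 and 6.36 CPM against 2.87, 6.11 and 3.38 CPM, with overlap and a log2 fold change of −0.66 (SE 0.34, adjusted p = 0.387).

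**Figure D1:**
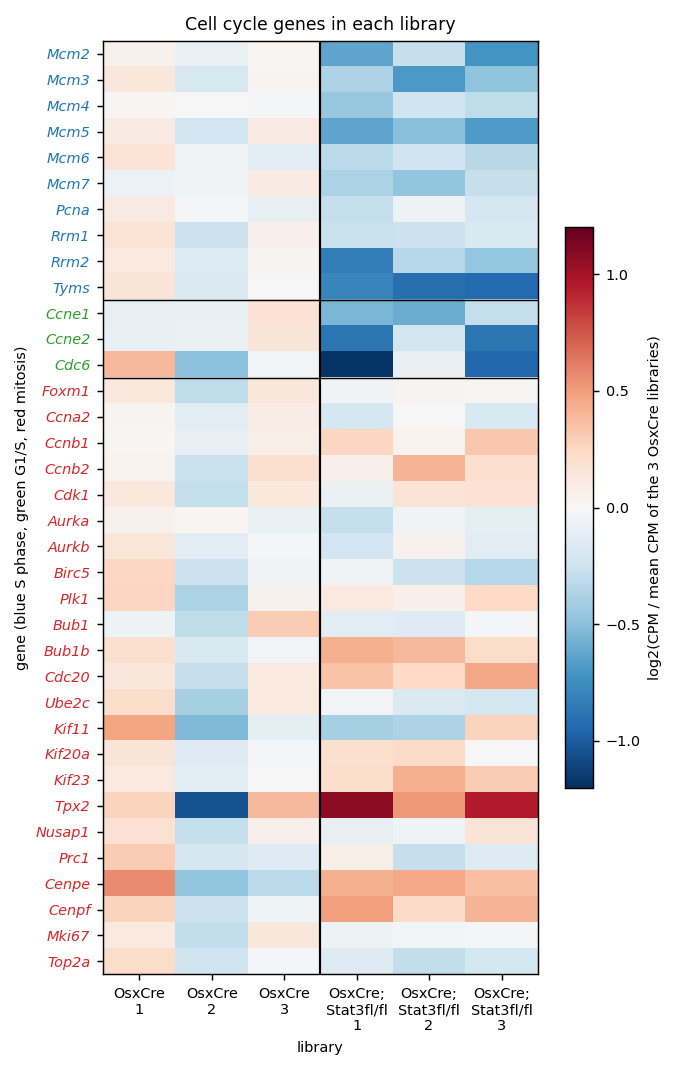
Colour gives the log2 ratio of each gene's CPM in a library (columns, 3 per genotype) to the mean CPM of the 3 OsxCre libraries, for the 36 genes (rows, grouped by role). The S-phase rows are blue in the libraries labelled OsxCre;Stat3fl/fl, where *Tyms* lies between −0.93 and −0.79, whereas the mitotic rows are mixed and are mostly blue in OsxCre library 2, the lowest OsxCre library for 22 of 23 mitotic genes.

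The mitotic genes showed another picture. *Mki67*, whose product Ki-67 coats mitotic chromosomes and marks dividing cells, had 156, 117 and 158 CPM in the *OsxCre* libraries, against 138, 141 and 142 CPM in those labelled *OsxCre;Stat3fl/fl*. The latter lay inside the range of the former, and the log2 fold change was −0.04 (SE 0.12, adjusted p = 0.920). *Top2a*, the topoisomerase that untangles sister chromatids, had 118, 85.7 and 99.3 CPM against 90.4, 82.3 and 87.1 CPM (log2 fold change −0.22, SE 0.12, adjusted p = 0.397). This was the lowest fold change among the 23, and the genotypes overlapped.

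The regulators that drive entry into mitosis overlapped between genotypes in 5 of 5 genes, as did 12012 of all 15600 tested genes. *Foxm1*, the transcription factor of the mitotic programme, had 32.6, 24.1 and 32.7 CPM against 29.0, 30.6 and 30.2 CPM (log2 fold change 0.00, SE 0.13, adjusted p = 0.994). *Cdk1*, the kinase that starts mitosis, had 50.4, 37.8 and 50.3 CPM against 43.6, 51.6 and 52.0 CPM (log2 fold change 0.09, SE 0.13). For both, *OsxCre* library 2 was the lowest of the 6 libraries. The cyclin B genes *Ccnb1* and *Ccnb2*, which activate CDK1, had log2 fold changes of 0.21 (SE 0.13) and 0.23 (SE 0.15), and the cyclin A gene *Ccna2*, which acts in S phase and in mitosis, one of −0.13 (SE 0.10). None of these 5 was called at an unadjusted p.

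Among the mitotic kinases and the chromosomal passenger complex, 0 of 4 genes were called in either direction. *Plk1*, a kinase of centrosomes and kinetochores, had a log2 fold change of 0.14 (SE 0.18), and *Aurka*, a kinase of the spindle poles, one of −0.14 (SE 0.14). *Aurkb* and *Birc5*, the kinase and a subunit of the passenger complex, had log2 fold changes of −0.10 (SE 0.13) and −0.21 (SE 0.15). The genotypes overlapped in each of the 4. Of all 15600 tested genes, 12012 overlapped and 13047 were not called.

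The spindle checkpoint and the trigger of anaphase held 2 of the 4 mitotic genes called higher. *Bub1b*, a checkpoint kinase homologue that holds back anaphase, had 22.1, 17.1 and 18.9 CPM against 26.0, 25.3 and 22.5 CPM, without overlap (log2 fold change 0.34, SE 0.13, adjusted p = 0.236). *Cdc20*, the activator of the anaphase-promoting complex that *Bub1b* binds, had 25.5, 19.2 and 25.2 CPM against 29.6, 27.5 and 32.1 CPM, also without overlap (log2 fold change 0.35, SE 0.13, adjusted p = 0.251). In both genes *OsxCre* library 2 was the lowest of the 6 libraries. The kinase *Bub1* and *Ube2c*, the ubiquitin-conjugating enzyme of the same complex, had log2 fold changes of −0.10 (SE 0.18) and −0.14 (SE 0.17).

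Of the kinesins and spindle proteins, *Kif23*, a motor of the central spindle in cytokinesis, had 20.1, 17.0 and 18.6 CPM against 21.4, 24.9 and 23.0 CPM. The genotypes did not overlap, and the log2 fold change was 0.32 (SE 0.11, adjusted p = 0.226). *Tpx2*, an activator of Aurora A, was also higher without overlap but was counted with only 5 to 18 reads per library (log2 fold change 0.85, SE 0.40, adjusted p = 0.344). The others overlapped. They were *Kif11*, which pushes the spindle poles apart (−0.13, SE 0.34), *Kif20a*, a motor of cytokinesis (0.14, SE 0.12), *Nusap1*, which binds spindle microtubules (0.00, SE 0.14), and *Prc1*, which bundles them in the central spindle (−0.11, SE 0.16), each as log2 fold change. At the kinetochore, *Cenpf* had 26.0, 18.1 and 20.8 CPM against 30.5, 25.3 and 28.8 CPM. It was called higher at an unadjusted p although *OsxCre* library 1 lay within the other genotype (log2 fold change 0.38, SE 0.15, adjusted p = 0.264). The kinetochore motor *Cenpe* had a log2 fold change of 0.42 (SE 0.29).

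Of the 23 mitotic genes, 0 were called lower and 4 were called higher at an unadjusted p (8.03% of all tested genes were called higher), 4 were higher without overlap (10.8% of all tested genes), and 0 were lower without overlap. None passed the adjusted test in either direction by edgeR or by DESeq2, and 0.776% of all tested genes passed it by edgeR as higher. *OsxCre* library 2 was the lowest *OsxCre* library for 22 of the 23 mitotic genes and for 6 of the 10 S-phase genes. Without it, 0 mitotic genes were called higher and 1 lower (*Top2a*), and the median log2 fold change was −0.12 for the mitotic and −0.48 for the S-phase genes. The mitotic genes called higher were 1 without *OsxCre* library 3 or without library 1 labelled *OsxCre;Stat3fl/fl*, and 2 without library 2 or library 3 so labelled.

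**Figure D2:**
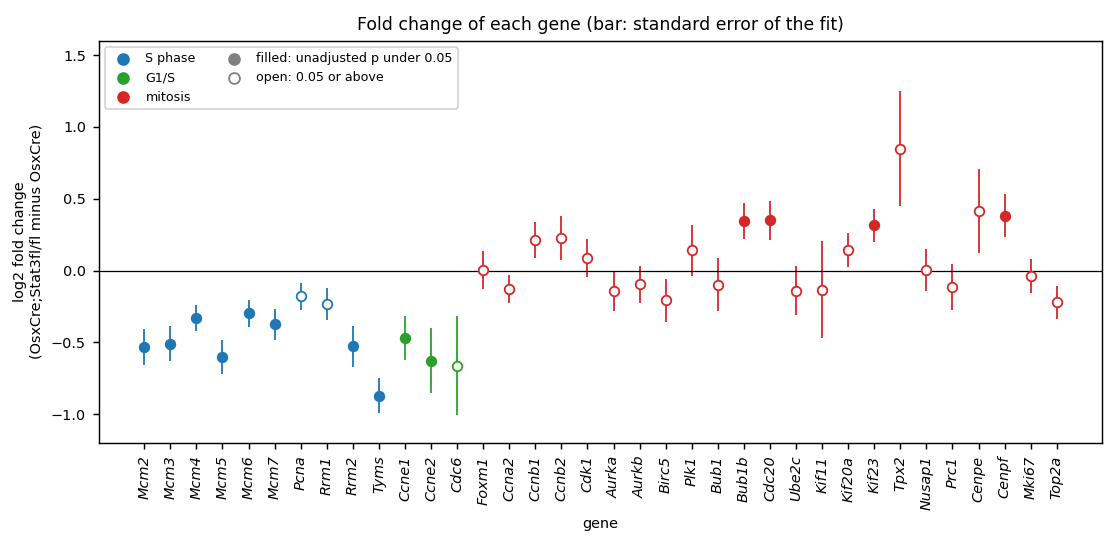
Points give the log2 fold change of each of the 36 genes in the libraries labelled OsxCre;Stat3fl/fl against the OsxCre libraries (n = 3 each), bars the standard error of the fit, and filled points an unadjusted p under 0.05. The S-phase genes lie between −0.87 and −0.18, and the mitotic genes between −0.22 and 0.85.

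The promoters of *Cdc20* and *Kif23* are printed in the same way, to set the letters of a mitotic promoter beside those of the MCM genes. That of *Cdc20* lies on the minus strand at chr4:118437314-118437593 and that of *Kif23* on the minus strand at chr9:61946770-61947049, again from RefSeq on GRCm38.p6 with matches to E2F, the CCAAT box and CHR in capitals.
Cdc20: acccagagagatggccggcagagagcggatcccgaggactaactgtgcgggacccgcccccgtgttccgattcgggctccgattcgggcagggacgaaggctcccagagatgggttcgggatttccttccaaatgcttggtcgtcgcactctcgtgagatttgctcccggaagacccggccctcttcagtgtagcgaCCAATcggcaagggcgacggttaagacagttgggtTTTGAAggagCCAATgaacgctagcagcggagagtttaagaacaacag
Kif23: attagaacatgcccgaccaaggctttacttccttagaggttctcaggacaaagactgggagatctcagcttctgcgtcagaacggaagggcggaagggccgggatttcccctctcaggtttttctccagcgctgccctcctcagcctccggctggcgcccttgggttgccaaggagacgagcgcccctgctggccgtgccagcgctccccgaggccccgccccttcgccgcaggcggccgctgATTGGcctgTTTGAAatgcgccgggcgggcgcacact
Both hold a CCAAT box and a CHR close to the start site and no E2F match. The CHR begins 18 bases before the start site in *Cdc20* and at base 3 of the transcript in *Kif23*.

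Of the 36 genes, 29 had a promoter window in the RefSeq table (250 bases before to 50 bases after the start), namely 9 S-phase, 2 S-phase entry and 18 mitotic genes. An E2F match was found in 5 of 9 S-phase windows (55.6%) and in 3 of 18 mitotic windows (16.7%), against 14.3% of the 10650 windows of tested genes. For CHR the order was turned round, with 3 of 9 S-phase windows (33.3%) and 16 of 18 mitotic windows (88.9%), against 18.8% of the windows of tested genes. The CCAAT box was found in 88.9% of both, against 38.6%. The letters of a STAT site (TTCNNNGAA, where N is any base) were in 1 of 9 S-phase windows (11.1%) and 0 of 18 mitotic windows, against 6.81%. The S-phase window was that of *Mcm5*, where they start 239 bases before the start site and are printed above in lower case. The window of *Tyms* held no match to any of these motifs, and those of *Mcm2*, *Pcna* and *Rrm2* held no E2F match. Such matches describe these letters in these windows and do not show that a factor was bound.

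**Figure D3:**
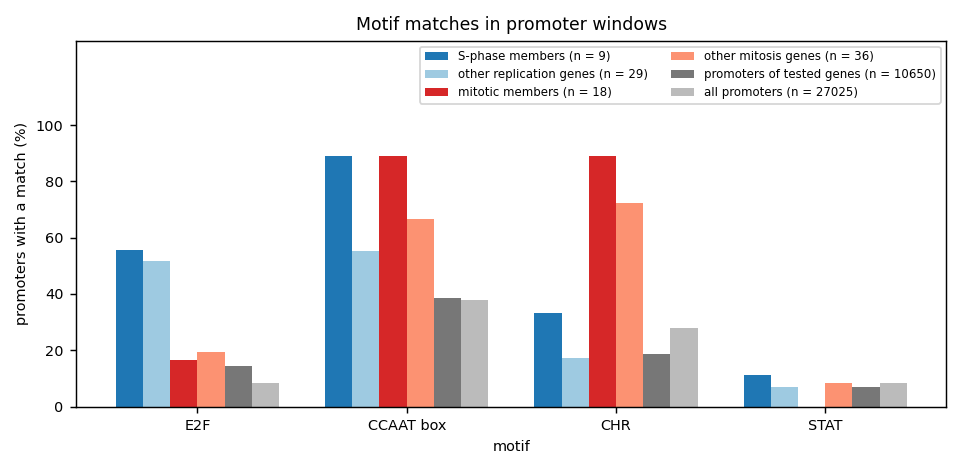
Bars give the percentage of promoter windows with at least 1 match to each motif on either strand, for the S-phase and mitotic genes, the other genes of replication and mitosis, the tested genes and all promoters (n in the key). E2F matches were in 55.6% of the S-phase and 16.7% of the mitotic windows, and CHR matches in 33.3% and 88.9%.

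To compare the phases within a library, the geometric mean of the CPM values was taken over the genes of each. For the 10 S-phase genes it was 44.0, 38.0 and 41.6 CPM in the *OsxCre* libraries, against 29.2, 31.3 and 30.1 CPM in those labelled *OsxCre;Stat3fl/fl*. The mean of the latter was 73.3% of that of the former, without overlap (41.2 ± 3.02 and 30.2 ± 1.06 CPM, SD, n = 3 each). For the 23 mitotic genes it was 20.9, 15.1 and 18.9 CPM against 19.5, 19.3 and 20.0 CPM, which overlapped (18.3 ± 2.95 and 19.6 ± 0.347 CPM). The ratio of the S-phase to the mitotic mean does not depend on how the libraries are scaled, and since gene length enters it equally in each library only its change is read. It was 2.11, 2.52 and 2.20 in the *OsxCre* libraries and 1.50, 1.62 and 1.51 in the libraries labelled *OsxCre;Stat3fl/fl*. Each *OsxCre* library thus had relatively more S-phase RNA than each library of the other genotype, and *OsxCre* library 2, low in mitotic genes, had the highest ratio. No p-value is given for these scores, since they run over a chosen list. In bulk tissue, a smaller share of cells in a phase and less RNA per cell cannot be told apart.

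**Figure D4:**
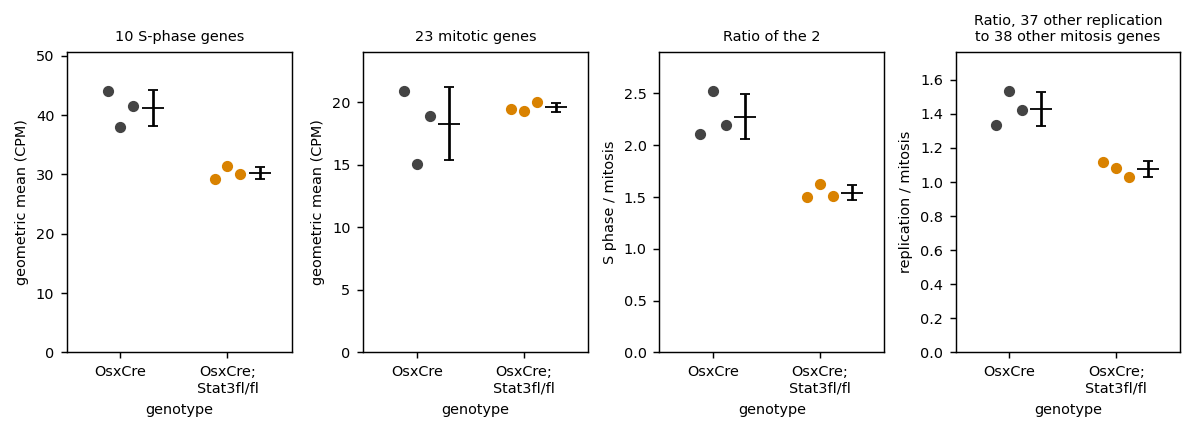
Points are the 3 libraries of each genotype, with the mean and SD beside them, for the geometric mean CPM of the 10 S-phase genes and of the 23 mitotic genes, the ratio of these means, and the same ratio over 37 other replication and 38 other mitosis genes. The mitotic panel alone shows overlap between genotypes, and the S-phase to mitotic ratio lies at 2.11 to 2.52 against 1.50 to 1.62.

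Further genes of the cell cycle, from lists that leave out the 36, gave values of the same kind. Of 37 other genes of DNA replication (origin recognition, polymerases, clamp loader, replication protein A, chromatin assembly), 19 were called lower and 0 higher at an unadjusted p, and the median log2 fold change was −0.39, against −0.00 for all tested genes. *Rpa1*, which coats single-stranded DNA at the fork, had 74.0, 68.7 and 73.1 CPM against 52.7, 56.0 and 52.7 CPM and passed the adjusted test by edgeR (log2 fold change −0.42, SE 0.07, adjusted p = 0.0430). *Uhrf1*, which guides the copying of DNA methylation behind the fork, had 52.4, 38.3 and 49.3 CPM against 29.6, 30.2 and 29.2 CPM (log2 fold change −0.65, SE 0.12, adjusted p = 0.0566). Of 41 other genes of mitosis, 38 were tested, 3 were called lower (*Spc24*, *Incenp* and *Cks1b*) and 4 higher (*Ckap2*, *Aspm*, *Kif2c* and *Smc4*), with a median of −0.02. These shares of 7.89% and 10.5% lie near the 8.34% and 8.03% of all tested genes called lower and higher. Without overlap, 3 of the 38 were lower and 8 higher, against 12.2% and 10.8% of all tested genes. The smallest p-values in this list were those of the spindle protein genes *Ckap2* (log2 fold change 0.55, SE 0.12, adjusted p = 0.0825) and *Aspm* (0.50, SE 0.11, adjusted p = 0.0828), both higher. The ratio of the geometric means of these 2 lists was 1.33, 1.53 and 1.42 in the *OsxCre* libraries and 1.12, 1.08 and 1.03 in the libraries labelled *OsxCre;Stat3fl/fl*, again without overlap.

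Upstream of S phase, 4 of 8 tested G1 cyclins and kinases were called lower (*Ccnd1*, *Ccnd2*, *Cdk4* and *Mycn*) and 0 higher, with a median log2 fold change of −0.25. Of all tested genes, 8.34% were called lower and 8.03% higher, beside which the counts of this and the next lists are read. *Ccnd1*, a cyclin D that links growth signals to the cycle, had 154, 157 and 171 CPM against 142, 125 and 107 CPM (log2 fold change −0.37, SE 0.11, adjusted p = 0.161), and *Ccnd2* had a log2 fold change of −0.31 (SE 0.09, adjusted p = 0.164). Of 18 genes of the retinoblastoma, E2F and DREAM group, 6 were called lower (*Rbl1*, *E2f1*, *E2f2*, *E2f6*, *E2f7* and *E2f8*). Another 2 were called higher (*Rbl2* and *Tfdp2*). *E2f1*, an activating E2F, had 26.0, 25.9 and 28.1 CPM against 20.2, 16.1 and 13.6 CPM (log2 fold change −0.68, SE 0.15, adjusted p = 0.0825). *Tfdp2*, a partner of the E2F proteins, had 49.7, 45.3 and 51.8 CPM against 60.6, 80.8 and 89.0 CPM (log2 fold change 0.65, SE 0.14, adjusted p = 0.0807). In both genes the genotypes did not overlap. Of 6 tested CDK inhibitors, 0 were called lower and 1 higher, *Cdkn1a*, which encodes p21, at 263, 242 and 243 CPM against 297, 364 and 285 CPM (log2 fold change 0.34, SE 0.11, adjusted p = 0.178), while *Cdkn2b*, next in p, was not called (−0.53, SE 0.29, adjusted p = 0.412).

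Of 14 genes of the anaphase-promoting complex, 2 (14.3%) were called lower and 0 higher. Those called lower were *Cdc16* (log2 fold change −0.23, SE 0.07, adjusted p = 0.167) and *Anapc1* (−0.18, SE 0.06, adjusted p = 0.214). Of 11 checkpoint and p53 genes, 4 were called lower (*Chek1*, *Trp53*, *Mdm2* and *Ccng1*) and 1 higher (*Cdc25b*), led by *Mdm2*, a ligase that degrades p53 (−0.27, SE 0.08, adjusted p = 0.161), and by *Trp53*, which encodes p53 (−0.30, SE 0.10, adjusted p = 0.188). Over these 7 lists, 38 of 132 tested genes (28.8%) were called lower, against 8.34% of all tested genes, and 8 (6.06%) were called higher, against 8.03%. Genes in brackets without values were named after their values were seen.

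**Figure D5:**
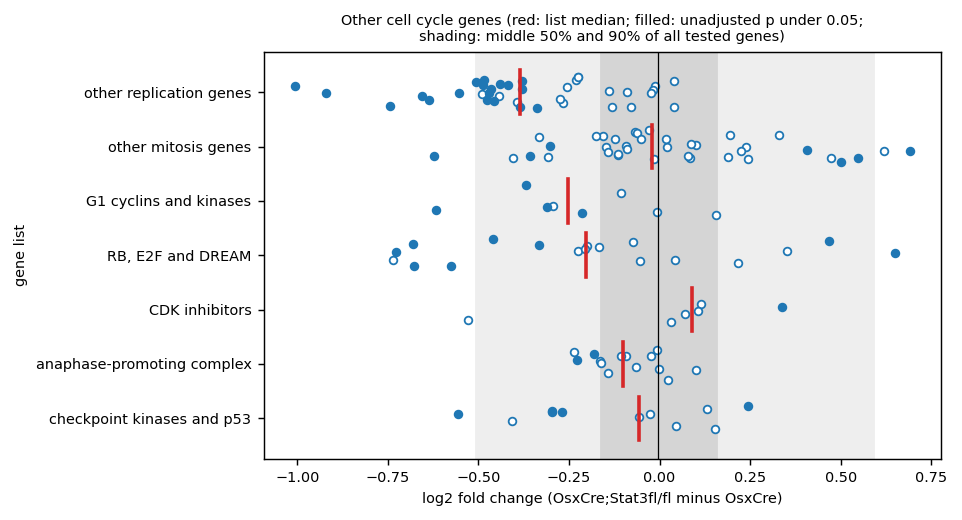
Each point is 1 tested gene of a list (rows), placed by its log2 fold change in the libraries labelled OsxCre;Stat3fl/fl against OsxCre, filled at an unadjusted p under 0.05, with the list median in red and the middle 50% and 90% of all tested genes shaded. The other replication genes have a median of −0.39 and the other mitosis genes one of −0.02.

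Marker lists of other cell types in the tissue moved with genotype as well. The summed CPM of 10 neutrophil-lineage markers was 289 to 493 in the *OsxCre* libraries and 126 to 209 in the libraries labelled *OsxCre;Stat3fl/fl*, without overlap, with 6 of 9 tested markers called lower (8.34% of all tested genes) and a median log2 fold change of −1.05. That of 8 macrophage markers was 412 to 441 against 501 to 536 CPM, and that of 10 skeletal muscle markers 30374 to 32815 against 36104 to 53423 CPM, both higher without overlap, with 4 of 8 and 8 of 10 markers called higher (8.03% of all tested genes) and median log2 fold changes of 0.24 and 0.56. The summed CPM of the osteoblast markers was 12580 to 16846 against 10985 to 14026, with overlap, and 8 of 9 markers had log2 fold changes below 0, 3 of them called lower (median −0.25). That of the erythroid precursor markers was 206 to 326 against 152 to 215 CPM, also with overlap, and 6 of 6 tested markers of 10 were below 0, 1 of them called lower, with the same median as the S-phase genes, −0.44. The lists for B-lymphoid precursors, muscle progenitors, osteoclasts, chondrocytes, endothelial cells and neural cells overlapped between genotypes and held 0 markers called lower and 0 to 2 called higher by edgeR at an unadjusted p. The neural sum varied widely within a genotype, at 145, 568 and 129 CPM in the *OsxCre* libraries against 415, 79.8 and 285 CPM. No marker of any of these lists was at 0 in all libraries. The part of these cells in the lower S-phase RNA was not tested.

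Further measures that could move with the S-phase genes were read beside them. The median GC content of the longest coding transcript was 47.0% for the S-phase genes, 47.2% for the mitotic genes and 50.7% for all tested genes. With offsets for GC content and transcript length the median log2 fold change was −0.47 for the S-phase and 0.01 for the mitotic genes. *Cdc6*, *Top2a*, *Birc5* and *Aurkb* lie on chromosome 11 with *Stat3*, at 1.98, 1.89, 17.0 and 31.8 Mb from it. Their log2 fold changes were −0.66, −0.22, −0.21 and −0.10, and none of them was called. No S-phase gene of the list lies on that chromosome. The genes on it among the other replication genes (*Rpa1* and *Tk1*) were called lower.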

How the data were processed

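For each of the 6 libraries the authors deposited raw read counts per gene symbol as whole numbers. The labels name HISAT2 and GRCm38, whereas the study's methods describe TopHat and mm9. The counting program and annotation are not given in the sources used here. The labels describe polyA RNA and the methods total RNA. Library totals lay between 8193651 and 12080044, and values below about 3 counts (0.248 to 0.366 CPM) are not resolved, for counting error only.

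In R 4.3.3 with edgeR 4.0.16, low genes were removed by filterByExpr (a minimum of 10 counts, 15 in total) and libraries were scaled by TMM. Genes were compared between genotypes with the two-sided quasi-likelihood test, adjusted by Benjamini-Hochberg over 15600 genes. Both genotypes of 3 libraries entered the fit, without covariates. CPM uses the TMM-scaled library size. The SE is the log2 fold change divided by the square root of F. Groups of libraries without overlap are those whose 3 values all lie beyond the other 3. Alternatives were other scalings, no filter, DESeq2 1.42.0, limma-voom (3.58.1), the replicate number as a block, leaving out each library and, added after seeing the data, offsets for GC content and length (loess, span 0.5; GENCODE transcripts on NCBIM37, found for 88.4% of tested genes).

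Genes and lists were chosen with earlier results of these data known. Named with values were *Stat3*, *Xist*, *Tyms-ps*, the 36 genes and, of each further list, the 2 genes with the smallest p and any past the adjusted test. Other genes called at an unadjusted p were named without values, after these were seen. Replicate libraries were not duplicates (chi-square per degree of freedom at least 7.51). Same-numbered libraries did not deviate together. Promoters were matched by symbol to a RefSeq table (GRCm38.p6), and no sequence is printed for genes outside it. Plots and tables used Python 3.11.15, pandas 2.3.3 and matplotlib 3.10.9.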

Additional observations from a re-analysis of the deposited data

How the results depend on the processing

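The lower S-phase genes held in direction throughout. Over 15 alternatives the median log2 fold change of the S-phase genes ran from −0.48 to −0.38, 8 to 10 of the 10 were called lower at an unadjusted p, and each of the 10 and of the 3 S-phase entry genes stayed below 0. The mitotic median ran from −0.12 to 0.16, and the S-phase minus the mitotic median from −0.58 to −0.36. The mitotic genes called higher (4, which are all the genes of the list called higher) were 1 with library totals, 2 by DESeq2 and 0 to 5 when a library was left out. Mitotic genes called lower were 0 to 1 with a library left out. Genes of the list lower at an adjusted p (1, *Tyms*) were 3 with library totals, 4 without the filter and 4 by DESeq2 (*Mcm2* and *Mcm5* in each, *Mcm3* in the latter 2), and 0 to 2 with a library left out. *Tyms* had an adjusted p of 3.45e-04 by DESeq2 and 0.0368 to 0.113 with a library left out, under 0.05 only without *OsxCre* library 2. Other mitosis genes called higher (4) were 2 to 5 and genes of all 7 lists called higher (8) were 5 to 9 with a library left out. Of all tested genes, 75 were lower at an adjusted p, against 114 with library totals, 178 without the filter, 235 by DESeq2 and 5 to 36 with a library left out, and 121 were higher, against 250 without the filter, 304 by DESeq2 and 7 to 67. With library totals the median of all genes was −0.05 and the calls at an unadjusted p were 1730 lower and 923 higher, against 1301 and 1252 with TMM.

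Replicate numbers pair no libraries in the labels, and the deviations of same-numbered libraries correlated at −0.10, −0.53 and −0.069. In a fit with that number as a block term, 0 genes of the list passed the adjusted test (*Tyms* adjusted p 0.0981), as did 1 lower and 0 higher of all tested genes, and 8 S-phase genes were called lower.

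Fold changes near 0 changed sign in 8 of the 23 mitotic genes. *Foxm1* was at −0.040 with library totals, −0.0045 without the filter and −0.0041 with GC content offsets, and *Nusap1* at −0.039 with library totals and −0.0035 without the filter. With a library left out, the log2 fold change ran from −0.13 to 0.076 for *Foxm1*, −0.040 to 0.17 for *Cdk1*, −0.017 to 0.29 for *Plk1*, −0.23 to 0.079 for *Bub1*, −0.38 to 0.18 for *Kif11*, −0.12 to 0.11 for *Nusap1*, −0.21 to 0.071 for *Prc1* and −0.17 to 0.036 for *Mki67*. The cause of these shifts was not tested.

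With 3 libraries per genotype, SEs of the log2 fold changes were 0.09 to 0.14 for S-phase and 0.10 to 0.40 for mitotic genes, so that changes of the size seen in *Mcm6* could not be called in *Kif11*, *Tpx2* or *Cenpe*, whose SEs were 0.29 or more.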
